A study of Mus musculus with 59 samples.

Results

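The mouse genome carries 258 annotated ERVK subfamilies besides the intracisternal A particles (IAPs) and the mouse mammary tumour virus (MMTV), and their RNA was followed here in sorted blood progenitors after loss of Daxx, Pu.1 or both. Members were taken by a rule on annotation alone: family ERVK in the repeat tables, no IAP in the name, and neither MMTV-int nor RLTR3_Mm. They are 258 of 1143 repeat subfamilies listed in the tables used, beside 25 IAP subfamilies and 2 MMTV entries. By name, 223 members are long terminal repeats (LTRs) and 35 are internal parts.

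Bone marrow of C57BL/6 mice was sorted by the authors into KLS cells (lineage-negative, c-Kit-positive and Sca-1-positive, a mixed population in which the stem cells are found) and into committed myeloid cells, the granulocyte–monocyte progenitors (GMPs), and RNA was sequenced. Daxx-KO was Daxx F/F with Cre +/-, its wild type (WT) Daxx +/+ with Cre +/-, and the double knockout (DKO) was floxed at both genes, as Daxx F/F and Pu.1 F/F, with Cre +/-. A separate line compared Pu.1 F/F (Pu.1-KO) with Pu.1 +/+, both with Cre +/-. All of these groups, controls included, therefore carry Cre. For the sets at 3 and 24 weeks post induction (w.p.i.) the driver was Mx1Cre, which interferon or pI:pC switches on and which acts beyond blood cells. An earlier set of KLS cells and GMPs has no time point on its labels and is called untimed here. The paper also describes these cell types sorted from lethally irradiated mice transplanted with Daxx +/+ or Daxx F/F Mx1Cre marrow. The untimed set may be that one, which was not settled here, so it is not taken as a steady-state set. Ages are not given in the labels. At 3 w.p.i., KLS cells had 3 WT, 3 Daxx-KO and 2 DKO libraries, GMPs had 2 of each, and the Pu.1 line and the untimed set had 2 libraries per group. At 24 w.p.i. 2 WT libraries of each cell type could be assigned. The study's legends count replicates of the repeat data as mice, while the labels do not tie each library to an animal.

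ERVK elements are retroviruses that settled in the germ line. A full copy has an internal part with gag, pro and pol sequences between 2 identical LTRs, and the LTR holds the promoter and polyadenylation signal. Most genomic copies are solitary LTRs left by recombination. Early transposons (ETn) and their coding relatives MusD are young members that can still move in mice. MMETn-int and the ETnERV entries are their internal parts, and RLTRETN_Mm is their LTR. MMERVK10C-int is paired with LTRs of the RLTR10 group. In many mouse cells such copies are kept silent by Trim28 (KAP1) with the histone H3K9 methyltransferase Setdb1, by DNA methylation, and by histone H3.3, which Daxx and its partner Atrx deposit. A value here is the sum over all copies of a subfamily, wherever they lie, so it has no single chromosomal position and does not tell an LTR-driven transcript from a copy read through within another gene.

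Sequencing gave between 1263010 and 12894834 repeat reads per library. The numbers of reads limit low subfamilies: of the 258 members, 3 had no read in any library of KLS cells at 3 w.p.i., 5 in GMPs at 3 w.p.i., 1 in the Pu.1 line and 6 at 24 w.p.i. Daxx mRNA was 465 ± 41 normalized counts (SD, n = 3) in WT against 85.7 ± 15.3 (n = 3) in Daxx-KO for KLS cells 3 w.p.i., and 651 ± 34 against 72.1 ± 14.9 (n = 3 libraries each in the gene table) in GMPs. Spi1, which encodes Pu.1, was not lost in the libraries labelled DKO (mean 3162 against 1888 in WT KLS cells) or Pu.1-KO (2114 against 2422 in KLS cells). In GMPs the means were 3417 in DKO against 4112 in WT, which overlapped, and 2648 in Pu.1-KO against 3664 in WT of the Pu.1 line, which did not. Those groups are called by their labels. In the untimed repeat tables the columns headed WT and Daxx-KO may be exchanged (described below).

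Together the members made up a steady share of the repeat signal in most groups. In KLS cells at 3 w.p.i. they took 6.59 ± 0.006% (SD, n = 3) of repeat reads in WT, 6.61 ± 0.147% (n = 3) in Daxx-KO against 6.49 ± 0.124% (n = 2) in DKO. GMPs gave 7.05 ± 0.158%, 7.11 ± 0.618% and 7.42 ± 0.596% (n = 2 each). In both cell types the means of WT and Daxx-KO differed by less than the spread within Daxx-KO. IAP subfamilies in the same KLS libraries took 1.03 to 1.13% in WT and 1.50 to 2.17% in Daxx-KO, ranges that did not meet.

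In the Pu.1 line the members' share lay higher in both Pu.1-KO libraries than in both WT libraries of either cell type, a difference that was not tested. Members took 7.59 ± 1.04% in WT and 10.6 ± 1.60% in Pu.1-KO KLS cells, and 6.08 ± 0.325% and 8.19 ± 0.757% in GMPs (SD, n = 2 each). In those libraries a single LINE subfamily, L1Md_T, took 14.6 and 10.4% of repeat reads in WT KLS cells, 4.67 and 4.07% in Pu.1-KO KLS cells, 26.4 and 28.9% in WT GMPs and 14.3 and 18.6% in Pu.1-KO GMPs. With L1Md_T left out of the total, members took 8.02 and 9.29% in WT and 9.91 and 12.2% in Pu.1-KO KLS cells. In GMPs they took 8.58 and 8.23% in WT and 10.2 and 9.41% in Pu.1-KO, still without overlap in either cell type. The highest library by either total was Pu.1-KO KLS library b. It had 0.746 repeat reads per gene read, against 0.217 to 0.368 in the other libraries of the line, and its part in the result was not tested. At 24 w.p.i. WT KLS cells gave 6.75 ± 0.023% and WT GMPs 6.97 ± 0.499% (n = 2 each), and in the untimed set the shares were 5.10 ± 0.30% under the header WT and 5.38 ± 0.019% under Daxx-KO in KLS cells, and 5.12 ± 0.31% and 5.04 ± 0.60% in GMPs.

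**Figure D1:**
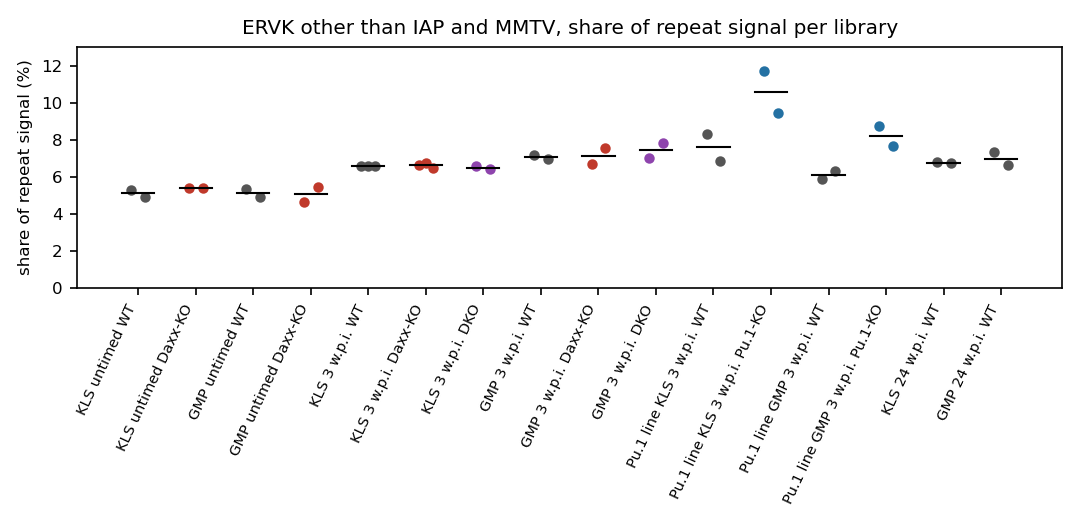
Share of all repeat signal (%, y axis) taken by the ERVK subfamilies other than IAP and MMTV in each library, grouped by cell type, set and genotype (x axis). Points are libraries and bars are group means. In the Daxx line, WT, Daxx-KO and DKO libraries at 3 w.p.i. lie between 6.40 and 7.84%. In the Pu.1 line, KLS libraries lie at 6.85 and 8.33% in WT and at 9.45 and 11.7% in Pu.1-KO.

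A few subfamilies carried much of this signal. In KLS cells at 3 w.p.i. (WT and Daxx-KO) the 5 highest were RLTR17B_Mm at 3137, RMER6A at 2645, RMER19B at 2221, RLTR20A4 at 1942 and MMETn-int at 1933 reads on the RPM scale, which sets the repeat reads of each library to 1 common total. In GMPs at 3 w.p.i. MMETn-int led with 6419, followed by RLTR19-int with 4866 and RLTR17B_Mm with 2607. These are sums over copies of unequal number and length, so their order is one of reads, not of transcripts per copy. Values below are CPM, counts set to 1 common total of repeat counts per library after scaling with edgeR's trimmed mean of M-values (TMM), and a subfamily counts as called where the adjusted p of edgeR's quasi-likelihood test is under 0.05.

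Loss of Daxx alone in KLS cells at 3 w.p.i. left 0 of the 247 members tested past the threshold, against 0.613% of all 815 subfamilies. The 5 subfamilies called were all outside the members. At an unadjusted p under 0.05 there were 24 members, of 65 subfamilies in all, and the smallest adjusted p of a member was 0.189. DESeq2 called 5 members, of which ERVB4_2-I_MM-int, MLTR25C, MMERVK10D3_I-int and RLTRETN_Mm were higher and RMER17B2 was lower. Its share over all subfamilies was not taken. Most members stayed close to no difference: 227 of 247 had a log2 fold change within 0.5 of 0, 124 were above and 123 below, and the median was 0.00, as over all subfamilies (-0.00).

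More than 2-fold differences were seen for 5 members on the higher side (ERVB2_1-I_MM-int at 1.82 on the log2 scale, ERVB4_2-I_MM-int, ERVB4_3-LTR_MM at 1.15, RNERVK23-int and ERVB4_3-I_MM-int at 1.01) and for RLTR9C on the lower side (-1.20). ERVB2_1-I_MM-int, ERVB4_3-LTR_MM, RNERVK23-int and RLTR9C overlapped between groups. Smaller differences were found among the ETn members. MMETn-int, the ETn internal part, had 1807, 3808 and 2054 CPM in Daxx-KO libraries 1, 2 and 3, and 1130, 1540 and 1374 in WT libraries 1, 2 and the unnumbered one. All Daxx-KO libraries lay above all WT libraries, by 0.92 on the log2 scale (SE 0.25, adjusted p = 0.231). Without Daxx-KO library 2 the log2 fold change was 0.52. RLTRETN_Mm, the ETn LTR, had 485, 685 and 455 in Daxx-KO against 372, 411 and 384 in WT, again without overlap (log2 fold change 0.48, SE 0.14, adjusted p = 0.346). ETnERV-int had 293, 486 and 243 in Daxx-KO against 220, 269 and 240 in WT, and the groups overlapped (log2 fold change 0.49, adjusted p = 0.614). The other ETn entries, ETnERV2-int and ETnERV3-int, had log2 fold changes of -0.17 and 0.13.

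RLTR13G, an LTR subfamily, had 344, 670 and 379 CPM in Daxx-KO against 199, 263 and 248 in WT libraries. The groups did not overlap and the log2 fold change was 0.97 (SE 0.23, adjusted p = 0.205). MMERVK10D3_I-int, an internal part, had 213, 218 and 198 in Daxx-KO against 91.1, 124 and 162 in WT. It was the more even of the pair among Daxx-KO libraries, with a log2 fold change of 0.74 (SE 0.18, adjusted p = 0.205). ERVB4_2-I_MM-int, an internal part of the ERVB group, had 101.1, 185 and 72.1 against 54.3, 59.98 and 39.5 (log2 fold change 1.21, SE 0.32, adjusted p = 0.22). RNERVK23-int had 193, 602 and 254 against 118, 161 and 201 (log2 fold change 1.12, SE 0.39, adjusted p = 0.513), and Daxx-KO library 1 lay below the unnumbered WT library. In MMETn-int, RLTRETN_Mm, ETnERV-int, RLTR13G, ERVB4_2-I_MM-int and RNERVK23-int the highest library was Daxx-KO 2.

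On the lower side, RLTR13D3 had 96.3, 83.2 and 92.8 CPM in Daxx-KO against 121, 134 and 126 in WT libraries. Its groups did not overlap (log2 fold change -0.48, SE 0.11, adjusted p = 0.189, the smallest of the members). In all, 21 members had every Daxx-KO library above every WT library, against 7.61% of all subfamilies, and 14 had every Daxx-KO library below, against 6.5%. These counts are 8.5% and 5.67% of the members tested, near the shares over all subfamilies.

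Other well-known members were mostly closer to 0. MMERVK10C-int had 750, 849 and 754 CPM in Daxx-KO against 700, 777 and 663 in WT KLS cells (log2 fold change 0.14, adjusted p = 0.74). Its LTR relatives had log2 fold changes of -0.20 for RLTR10, 0.15 for RLTR10A, 0.05 for RLTR10C and -0.08 for RLTR10D. RLTR10B, at 46.5, 33.6 and 60.6 CPM in Daxx-KO libraries 1, 2 and 3 and 24.0, 27.1 and 43.5 in WT, overlapped (0.57, adjusted p = 0.657). The values were -0.06 for RLTR9A, -0.18 for RLTR9D, -0.17 for RLTR9E, -0.12 for MMERVK9C_I-int and 0.10 for BGLII. RMER19B and RMER17A, LTRs of older groups, differed by -0.02 and 0.01, and the most abundant LTRs, RLTR17B_Mm and RMER6A, by -0.00 and 0.04. All of these had an adjusted p of at least 0.631.

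The ordering by name group was led by the ETn/MusD and ERVB entries. Medians of the log2 fold change in KLS cells were 0.48 for the 5 ETn/MusD members, 0.30 for the 19 ERVB members tested, 0.11 for MMERVK and 0.10 for RLTR10, and lay between -0.04 and 0.01 for RLTR9, RLTR13, RMER, other RLTR and all other members. Internal parts had a median of 0.11 and LTRs of -0.01.

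**Figure D2:**
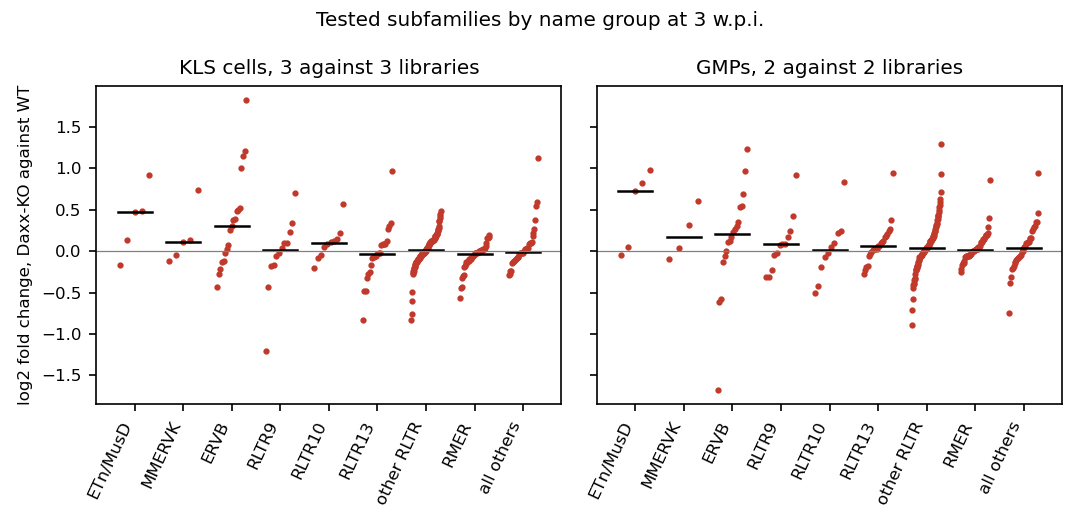
Log2 fold change of Daxx-KO over WT (y axis) for every tested member at 3 w.p.i., by name group (x axis), in KLS cells and in GMPs. Points are subfamilies and bars are group medians, which were highest for ETn/MusD in both cell types (0.48 and 0.72), and no subfamily shown was called.

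Markers of other cells differed between these KLS libraries. The summed normalized counts of the B-lineage list (Ebf1, Pax5, Cd79a, Vpreb1 and Igll1) were 4081, 31895 and 1314 in Daxx-KO libraries 1, 2 and 3 and 297 to 632 in WT, so Daxx-KO library 2, the highest for most of the internal parts above, was also the highest there. All 5 of its markers were found. The stem cell list (Procr, Mecom, Hlf, Mycn and Ly6a) summed to 36009, 14869 and 33163 in Daxx-KO against 32176 to 47384 in WT. Their part in the result was not tested, and in bulk samples fewer cells of a type and less RNA per cell cannot be told apart.

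In GMPs at 3 w.p.i. 0 of 242 members were called between Daxx-KO and WT, as were 0% of all 798 subfamilies. At an unadjusted p under 0.05 there were 4 members of 30 subfamilies, the smallest adjusted p was 0.879, and DESeq2 called 0 members. Every Daxx-KO library lay above every WT library for 41 members, against 18.2% of all subfamilies, and below for 27, against 15.9%. With 2 libraries a group such separation is frequent in either direction. The median log2 fold change was 0.05, against 0.01 over all subfamilies, with 146 members above and 96 below 0.

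Of the 5 ETn/MusD members, 3 lay higher in both Daxx-KO libraries than in both WT libraries, and ETnERV2-int and ETnERV3-int had log2 fold changes of -0.05 and 0.05. MMETn-int had 8361 and 7868 CPM in Daxx-KO against 5409 and 3757 in WT GMPs (log2 fold change 0.82, SE 0.55, adjusted p = 0.978). RLTRETN_Mm had 1440 and 1308 against 962 and 704 (0.72, SE 0.42), and ETnERV-int 844 and 857 against 443 and 422 (0.98, SE 0.51). RLTR13G had 1693 and 1320 against 917 and 649 (0.95, SE 0.49). In these 4 subfamilies Daxx-KO and WT did not overlap, and none passed the test. The libraries labelled DKO share this fit and lay far apart, with 2919 and 11038 for MMETn-int, below and above all other GMP libraries.

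RLTRETN_Mm, at 587 and 1590, ETnERV-int, at 485 and 1736, RLTR13G, at 598 and 1893, and RLTR19-int, at 1980 and 6712, showed the same split between DKO libraries a and b. The summed myeloid granule markers (Mpo, Elane, Prtn3 and Ctsg) were 94925 in DKO library a and 184873 in DKO library b, the lowest and the highest of the 6 GMP libraries, with 172534 and 157778 in Daxx-KO against 166865 and 117117 in WT. MMETn-int was thus lowest and highest in the libraries where this list was lowest and highest. Other lists went the other way between DKO libraries a and b. The B-lineage list summed to 3380 and 53.3, and the late neutrophil list (Ltf, Ngp, S100a8 and Camp) to 137613 and 86298. Repeat reads per gene read were 0.218 and 0.114. The part of any of these in the result was not tested.

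**Figure D3:**
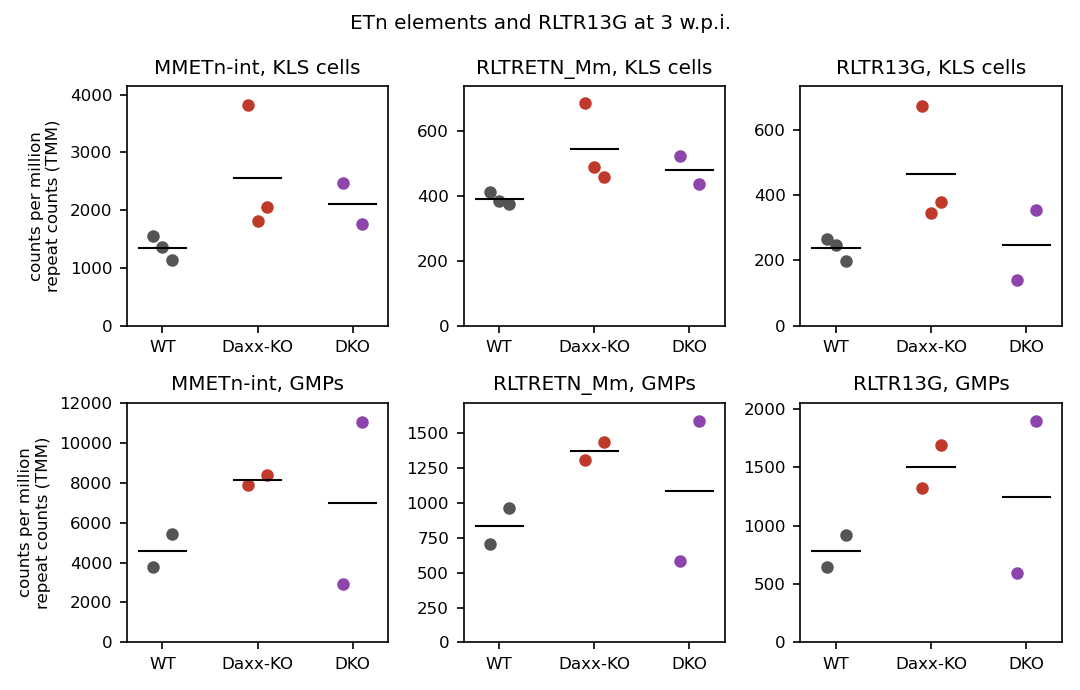
CPM of repeat counts (y axis) of MMETn-int, RLTRETN_Mm and RLTR13G in WT, Daxx-KO and DKO libraries at 3 w.p.i., KLS cells in the upper row and GMPs in the lower row. Points are libraries and lines are group means. Daxx-KO libraries lie above WT libraries in all 6 panels, and the DKO libraries of GMPs lie far apart (2919 and 11038 for MMETn-int).

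Libraries labelled DKO gave calls in KLS cells. Of 247 members tested between DKO and WT at 3 w.p.i., 1 was higher (against 0.484% of all 827 subfamilies) and 1 lower (0.121%), both of the RLTR13 group of LTRs. At an unadjusted p under 0.05 there were 51 members of 120 subfamilies. DESeq2 called 9. The median log2 fold change was -0.04, against 0.00 over all subfamilies. No overlap was seen for 34 members with DKO above WT, against 15.8% of all subfamilies, and for 54 with DKO below, against 16.1%, so that 21.9% of the members tested lay below.

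RLTR13A1 had the clearest difference. In a scaling over all 8 KLS libraries it had 194.7 and 193.4 CPM in the libraries labelled DKO, 14.8, 23.1 and 28.6 in Daxx-KO against 31.0, 27.4 and 59.6 in WT. The DKO libraries lay above all 6 others, 4.94-fold over WT (log2 fold change 2.30, SE 0.30, adjusted p = 0.0295) and 8.75-fold over Daxx-KO (3.13, SE 0.34, adjusted p = 0.00201). The difference from Daxx-KO kept its call with any 1 library left out (highest adjusted p = 0.0162). The difference from WT lost it without DKO library 1 (adjusted p = 0.0937), WT library 1 (0.163) or WT library 2 (0.0761). Both comparisons use the same DKO libraries, so they do not stand alone.

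SRV_MM-int, an internal part, had a like shape at a higher level and with more spread. Its CPM values were 497 and 287 in DKO, 30.6, 49.0 and 18.2 in Daxx-KO against 19.0, 10.5 and 85.4 in WT KLS cells, the last being the unnumbered WT library. The log2 fold change over WT was 3.36 (SE 0.69, adjusted p = 0.0953) and over Daxx-KO 3.60 (SE 0.70, adjusted p = 0.0532). Without the unnumbered WT library it was 4.74 over WT (adjusted p = 8.16e-04).

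RLTR13D3 was the member that fell. It had 62.5 and 72.2 CPM in DKO, 96.6, 83.4 and 92.9 in Daxx-KO against 121, 135 and 125 in WT KLS cells, so that the 3 groups stood in order without overlap. DKO lay below WT by -0.92 on the log2 scale (SE 0.14, adjusted p = 0.03), and below Daxx-KO by -0.44 (adjusted p = 0.164). The call against WT held without the unnumbered WT library (adjusted p = 0.0495) and was lost in each of the other 4 omissions (0.0595 to 0.245).

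Against Daxx-KO, 1 of 248 members was higher in DKO KLS cells (against 0.36% of all 834 subfamilies) and 1 lower (0.48%), with 42 members of 113 subfamilies at an unadjusted p under 0.05. The higher one was RLTR13A1. The lower one was MMERVK10D3_I-int, at 80.4 and 104 CPM in DKO, 214, 218 and 198 in Daxx-KO against 91.4, 124 and 162 in WT. Its DKO libraries lay at the low end of the WT range and below every Daxx-KO library (log2 fold change -1.19, SE 0.22, adjusted p = 0.049). That call was lost without any 1 of the 5 libraries (adjusted p from 0.067 to 0.396). ERVB4_2-I_MM-int was also lower in DKO than in Daxx-KO, by -1.24 on the log2 scale, without passing the test (SE 0.37, adjusted p = 0.164). DKO libraries lay above all Daxx-KO libraries for 33 members, against 15.6% of all subfamilies, and below for 51, against 14.6%.

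MMETn-int lay between WT and Daxx-KO by its mean, with 2468 and 1760 CPM in the DKO KLS libraries. Its log2 fold change was 0.65 over WT (adjusted p = 0.152) and -0.28 against Daxx-KO (adjusted p = 0.75). RLTR13G split, with 140 in DKO library 1 and 354 in DKO library 2. Since the DKO and Daxx-KO comparisons share WT libraries, these values are given side by side and not tested against each other.

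**Figure D4:**
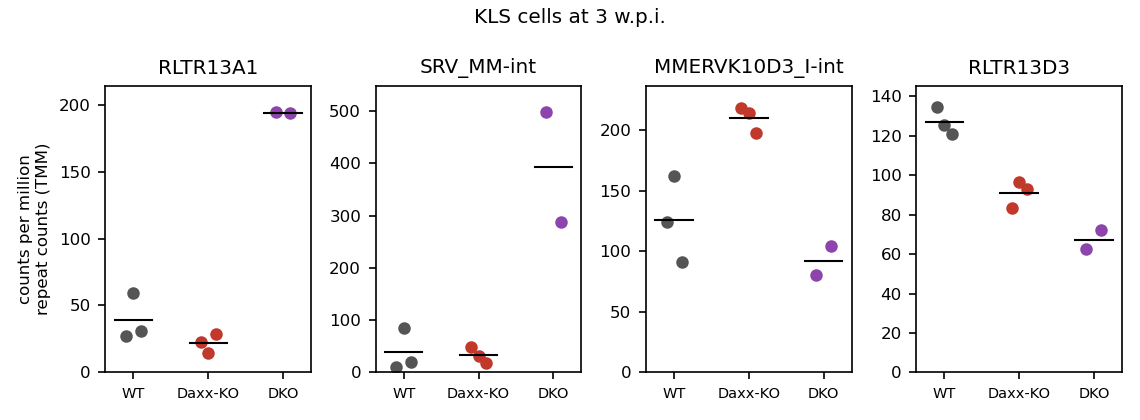
CPM of repeat counts (y axis) of RLTR13A1, SRV_MM-int, MMERVK10D3_I-int and RLTR13D3 in WT, Daxx-KO and DKO libraries of KLS cells at 3 w.p.i. Points are libraries and lines are group means. RLTR13A1 and SRV_MM-int are highest in both DKO libraries, MMERVK10D3_I-int is highest in the 3 Daxx-KO libraries, and RLTR13D3 goes down from WT to DKO.

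The same KLS libraries differed widely in myeloid markers. The granule list summed to 103441 and 107409 in DKO, 3313 to 12331 in Daxx-KO against 4297, 12466 and 42028 in WT. The late neutrophil list (Ltf, Ngp, S100a8 and Camp) summed to 159788 and 123929 in DKO and 671 to 4954 in Daxx-KO, and to 1705, 285 and 19360 in WT, the unnumbered library being the highest WT library for both lists. SRV_MM-int was also highest of the WT libraries in that one (85.4 CPM), as was RLTR13A1 (59.6). All markers of both lists were found, and their part in the results was not tested.

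GMPs gave a point of comparison for these 4 subfamilies. RLTR13A1 had 115 and 60.5 CPM in DKO, 76.7 and 77.5 in Daxx-KO against 76.2 and 72.0 in WT GMPs, and DKO overlapped WT (log2 fold change 0.27, adjusted p = 0.99). SRV_MM-int had 453 and 359 in DKO, 217 and 231 in Daxx-KO against 525 and 234 in WT. MMERVK10D3_I-int had 272 and 498 in DKO, 451 and 640 in Daxx-KO against 495 and 229 in WT GMPs, with overlap between all groups (log2 fold change of DKO over Daxx-KO -0.51, adjusted p = 0.893). RLTR13D3 had 65.3 and 51.4 in DKO against 79.6 and 88.1 in Daxx-KO against 85.6 and 79.3 in WT, below all libraries of both but not called (log2 fold change of DKO over WT -0.48, adjusted p = 0.99). Whether these effects differ between cell types was not tested, as KLS cells and GMPs were counted in separate tables.

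Of 242 members in GMPs at 3 w.p.i., 0 were called between DKO and WT or between DKO and Daxx-KO, against 0% of all 798 subfamilies in each. At an unadjusted p under 0.05 there were 9 members of 26 subfamilies against WT and 13 of 42 against Daxx-KO. DKO libraries lay above all WT libraries for 40 members (against 15.8% of all subfamilies) and below for 35 (15.4%), and above all Daxx-KO libraries for 38 (15.4%) and below for 48 (18.9%). DESeq2 called 0 members in the first and 1 in the second, ERVB4_3-I_MM-int, which had 21.2 and 20.2 CPM in DKO, 4.10 and 3.12 in Daxx-KO against 12.6 and 10.95 in WT. Its log2 fold change of DKO over Daxx-KO was 2.496 by edgeR (SE 0.50, adjusted p = 0.877).

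In the Pu.1 line 0 of 252 members were called in KLS cells, against 0.236% of all 847 subfamilies, and 0 in GMPs, against 0%. An unadjusted p under 0.05 was reached by 43 members of 163 subfamilies in KLS cells and by 27 of 80 in GMPs. DESeq2 called 6 members in KLS cells (BGLII, RMER17A, RMER17C and RMER17D2 higher, MMETn-int and RLTR19-int lower) and 0 in GMPs. The spread here rested on few libraries, and in a fit of the 4 GMP libraries alone the GMP count was 27 (22 higher and 5 lower). The share over all subfamilies was not taken for that fit or for DESeq2. These counts therefore do not set the members apart from the rest of the table. The 5 lower were MMETn-int, RLTR13G, RLTR19-int, RLTR25B and RNERVK23-int.

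The members as a whole lay above the middle of the table. The median log2 fold change of Pu.1-KO over WT was 0.15 in KLS cells and 0.13 in GMPs, against 0.02 over all subfamilies in each, with 175 of 252 members above 0 in KLS cells. In KLS cells 85 members had both Pu.1-KO libraries above both WT libraries, against 26% of all subfamilies, and 37 below, against 25.1%. In GMPs the counts were 109, against 29.5%, and 42, against 25.9%. They amount to 33.7% and 43.3% of the members tested on the higher side.

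ETn members lay on both sides of 0. MMETn-int had 850 and 639 CPM in Pu.1-KO against 1289 and 1000 in WT KLS cells, and 1484 and 2361 in Pu.1-KO against 2728 and 3309 in WT GMPs. Pu.1-KO lay below WT in both cell types, by -0.62 (SE 0.24, adjusted p = 0.219) in KLS cells and -0.65 (SE 0.24, adjusted p = 0.507) in GMPs, and the difference between them was -0.03 (SE 0.34, adjusted p = 0.993). The ETn LTR, RLTRETN_Mm, had log2 fold changes of -0.30 in KLS cells and -0.32 in GMPs, whereas ETnERV-int (0.32 and 0.21), ETnERV2-int (0.46 and 0.38) and ETnERV3-int (0.51 and 0.38) were above 0, and none of the 5 was called. RLTR19-int had 736 and 483 against 1523 and 989 in KLS cells (log2 fold change -1.04, SE 0.25, adjusted p = 0.216), and 1606 and 1813 against 2297 and 2974 in GMPs (-0.62, adjusted p = 0.507). RLTR13G had 154 and 108 against 198 and 155 in KLS cells, and 169 and 317 against 346 and 413 in GMPs. Of 252 members, 0 were called for a difference of the Pu.1-KO effect between cell types, against 0% of all subfamilies. At an unadjusted p under 0.05 there were 3 members of 19 subfamilies, and DESeq2 called 0.

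All 7 BGLII members and all 10 RMER17 members tested had log2 fold changes above 0 in both cell types, with none called. The medians were 0.59 and 0.47 in KLS cells and 0.51 and 0.33 in GMPs. The names were picked after the values were seen. BGLII had 1405 and 3131 CPM in Pu.1-KO against 874 and 1423 in WT KLS cells, where the groups overlapped (log2 fold change 0.98, SE 0.33, adjusted p = 0.216), and 1773 and 1480 against 1166 and 988 in GMPs, where they did not (0.60, adjusted p = 0.53). RMER17D2 had 1080 and 1986 against 803 and 1070 in KLS cells (0.71) and 1384 and 1099 against 916 and 850 in GMPs (0.49). RMER17C had 2390 and 3722 against 1857 and 2183 (0.60), and 3103 and 2512 against 2426 and 2238 (0.27). In KLS cells the highest library of all 3 was Pu.1-KO library b. That library had 0.746 repeat reads per gene read, against 0.217 to 0.368 in the other 7. Late neutrophil markers summed to 47451 to 97630 in Pu.1-KO against 16377 to 29759 in WT KLS cells, and to 121250 to 125099 and 17621 to 23337 in GMPs, and the part of either in the result was not tested.

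WT cells were also compared with each other, GMPs against KLS cells, in 3 sets of libraries: 3 w.p.i., 24 w.p.i. and the Pu.1 line. Their columns share header numbers between the cell types, and the tests took all libraries as independent. The members called were internal parts and LTRs alike, and most were higher in GMPs. At 3 w.p.i. 6 of 247 members were higher (against 1.7% of all 822 subfamilies) and 0 lower (0.365%). At 24 w.p.i. 3 of 249 were higher (0.608%) and 2 lower (1.34%). In the Pu.1 line 2 of 252 were called, against 0.472%, both higher (0.236%) and 0 lower (0.236%). Over the 3 sets 11 members were called at least once, 5 of them had the same sign in all 3, and MMETn-int and RMER13A2 were called in 2 sets.

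At 3 w.p.i. MMETn-int had 1110, 1521 and 1353 CPM in WT KLS cells and 5857 and 4088 in WT GMPs (log2 fold change 1.90, SE 0.17, adjusted p = 0.00198). RLTR13G had 195, 260 and 244 against 993 and 706 (1.86, SE 0.17, adjusted p = 0.00198). The ETn LTR, RLTRETN_Mm, had 366, 406 and 379 against 1042 and 766 (1.23, SE 0.13, adjusted p = 0.00397). None of these groups came near each other. ETnERV-int rose less, from 216, 266 and 236 to 479 and 459 (0.97, SE 0.11, adjusted p = 0.00649). RLTR19-int had 1501, 1610 and 1473 against 5852 and 3250 (1.57, SE 0.20, adjusted p = 0.00824), and RMER13A2 274, 316 and 332 against 572 and 535 (0.85, SE 0.11, adjusted p = 0.00824). The call of RLTR19-int was lost without any 1 of the 3 KLS libraries (adjusted p from 0.0546 to 0.0718), and that of RMER13A2 without WT KLS library 2 (0.0626). The KLS and GMP values come from separate count tables, so cell type and table cannot be told apart in this set.

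At 24 w.p.i., where both cell types stand in 1 table, the ETn members were not called. MMETn-int had 2034 and 2768 CPM in KLS cells and 2386 and 2587 in GMPs, within the KLS range (log2 fold change 0.05, SE 0.12, adjusted p = 0.935). RLTRETN_Mm, RLTR13G and RLTR19-int had log2 fold changes of -0.11, -0.02 and -0.26. The calls were others. SRV_MM-int had 30.6 and 34.8 in KLS cells and 219 and 143 in GMPs (2.46, SE 0.28, adjusted p = 2.79e-06). MMERVK10D3_I-int had 152 and 184 against 501 and 411 (1.44, SE 0.17, adjusted p = 3.52e-06). RMER13A2, at 301 and 333 against 655 and 678, was called here as well as at 3 w.p.i. (1.07, adjusted p = 9.53e-06).

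RMER12B, at 711 and 825 in KLS cells and 530 and 454 in GMPs, was lower in GMPs at 24 w.p.i. (log2 fold change -0.64, SE 0.13, adjusted p = 0.0046). RNERVK23-int, at 363 and 539 against 276 and 280, was lower too (-0.70, SE 0.17, adjusted p = 0.025). Both calls were lost without KLS library b (adjusted p = 0.239 and 0.955).

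In the Pu.1 line MMETn-int was higher in WT GMPs than in WT KLS cells, as at 3 w.p.i. in the Daxx line (log2 fold change 1.40, SE 0.24, adjusted p = 0.0417). ERVB4_1C-LTR_Mm, an ERVB LTR, had 205 and 191 CPM in KLS cells and 345 and 365 in GMPs (0.84, SE 0.14, adjusted p = 0.0365). Both calls were lost without any 1 of the 4 libraries (0.0555 to 0.588 and 0.0836 to 0.566) and with no scaling beyond the total (0.0768 and 0.137). RLTR13G and RLTR19-int had log2 fold changes of 1.11 and 1.07 and were not called.

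SRV_MM-int also lay far apart in WT cells at 3 w.p.i., at 18.6, 10.4 and 84.2 in KLS cells and 569 and 255 in GMPs (log2 fold change 3.44, SE 0.74, adjusted p = 0.0579). Its level in the DKO KLS libraries at 3 w.p.i. (497 and 287, in another scaling) was thus nearer to that of WT GMPs than to that of WT KLS cells. RLTR13A1 did not follow this: WT GMPs at 3 w.p.i. had 76.2 and 72.0 CPM, below the DKO KLS libraries.

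**Figure D5:**
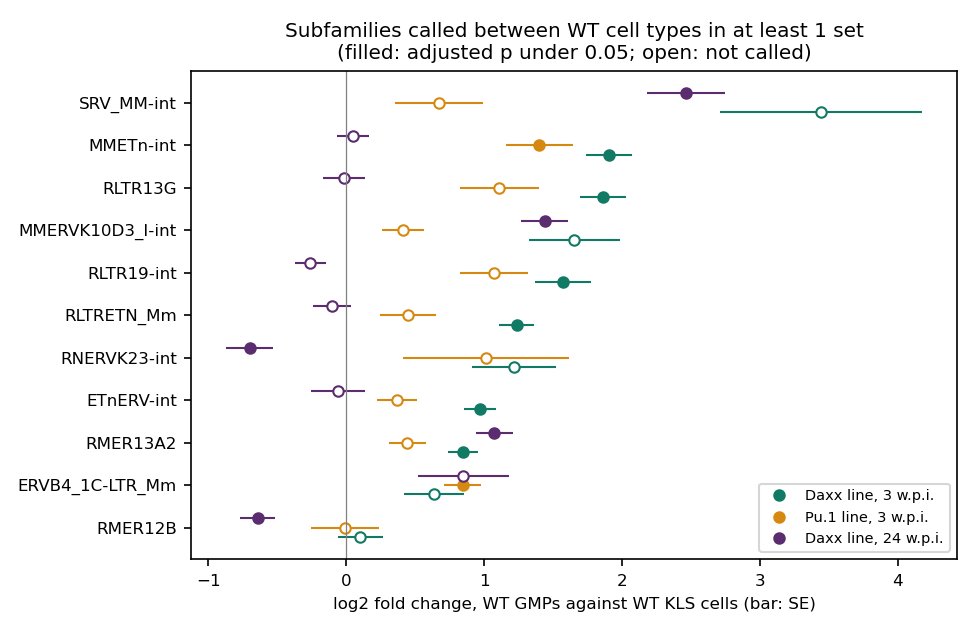
Log2 fold change of WT GMPs over WT KLS cells (x axis) for the 11 members called in at least 1 of 3 sets (y axis). Points are the 3 sets, error bars are SE and filled points were called. MMETn-int is at 1.90 at 3 w.p.i., 1.40 in the Pu.1 line and 0.05 at 24 w.p.i., whereas RMER13A2 is above 0 in all 3 sets.

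The untimed tables hold values that the authors had divided by size factors, and they came with doubt about their headers. Each library's size factor can be read from both its gene column and its repeat column. Taken by the same name, the ratio of the repeat to the gene factor ran from 0.171 to 6.05 in KLS cells and from 0.453 to 2.27 in GMPs, and with the genotypes of the repeat columns exchanged it ran from 0.958 to 1.06 and from 0.965 to 1.03. IAP subfamilies took 1.32 and 1.64% of the repeat signal under WT and 0.760 and 0.744% under Daxx-KO in KLS cells. In GMPs they took 1.12 and 1.18% under WT and 0.573 and 0.729% under Daxx-KO. The untimed repeat results are therefore given by header, with no settled direction. Every sign of the repeat values below turns around if the names are exchanged.

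As deposited, and with limma on log2(value + 1), 31 of 244 members were called in KLS cells, against 11.8% of all 1007 subfamilies: 20 were higher (against 7.85%) and 11 lower (3.97%) in the columns headed Daxx-KO. In GMPs 45 of 240 were called, against 14.3% of 992, of which 2 were higher (0.302%) and 43 lower (14%). The median of all subfamilies was itself shifted, by 0.27 in KLS cells and -0.28 in GMPs. After TMM scaling over the repeat values, which took the medians to 0.01 and -0.00, 1 member was higher (0.397%) and 11 lower (3.48%) in KLS cells, and 1 higher (0.202%) and 2 lower (1.11%) in GMPs.

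Among the members that stayed apart in KLS cells were ETn entries and other internal parts. Counts in this paragraph are as deposited, while log2 fold changes are after TMM scaling. MMETn-int had 11195 and 11571 normalized counts in the columns headed WT and 4498 and 4637 in those headed Daxx-KO (TMM log2 fold change -1.58, SE 0.09, adjusted p = 0.001). RLTRETN_Mm had 1331 and 1196 against 603 and 576 (-1.36). RNERVK23-int had 1370 and 1240 against 348 and 301 (-2.27). The columns within a header were close to each other compared with the gap between headers. MMERVK10D3_I-int, at 1209 and 1379 against 435 and 548 (-1.67), and RLTR13G, at 1428 and 1055 against 661 and 690 (-1.13), moved the same way. The other members called after TMM scaling were ERVB7_1-LTR_MM (-1.11), ERVB7_2-LTR_MM (-0.72), ERVB4_1-I_MM-int (-1.12), RLTR53B_Mm (-1.68), RLTR45-int (-0.99), RLTR11A (-0.50) and RLTR40, the one that was higher (0.48).

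In GMPs MMETn-int had 7572 and 6723 normalized counts as deposited under WT and 7396 and 6997 under Daxx-KO, which overlapped. After TMM scaling it had 6712 and 6308 under WT and 8150 and 7786 under Daxx-KO, without overlap and without a call (0.29, SE 0.09, adjusted p = 0.307). The 3 members called after TMM scaling were ERVB4_1-I_MM-int, at 202 and 235 against 60.9 and 66.7 (-1.48, adjusted p = 0.024), MMERVK9E_I-int, at 1286 and 1575 against 654 and 616 (-0.88, adjusted p = 0.035), and RLTR19-int, at 3015 and 2875 against 3659 and 4053 (0.67, adjusted p = 0.025). For these 3 the counts are as deposited, while the log2 fold changes and adjusted p are after TMM scaling. ERVB4_1-I_MM-int was the member called in both cell types after TMM scaling. RLTR13A1 was called higher under Daxx-KO in GMPs as deposited, but not after TMM scaling. After that scaling it had 87.5 and 65.3 under WT and 175 and 178 under Daxx-KO, without overlap. In the untimed gene tables, whose headers go with the level of Daxx (128 ± 14 normalized counts under WT and 31.8 ± 3.0 under Daxx-KO in KLS cells, SD, n = 2 each), the stem cell list summed to 16730 to 17471 under WT and 1124 to 1329 under Daxx-KO in KLS cells, and the granule list to 686 to 1249 and 11255 to 14731. In untimed GMPs the late neutrophil list summed to 2885 to 3965 under WT and 16895 to 26604 under Daxx-KO, and the stem cell list to 528 to 710 and 120 to 191. Their part in the result was not tested.

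The genes that keep ERVK copies silent gave few calls in the Daxx line at 3 w.p.i. A list of 32 such genes (Daxx, Atrx and H3.3 genes, Trim28, Setdb1 and its partners, DNA and histone methyltransferases, HP1 proteins, the HUSH complex and others) was tested with limma on the deposited gene values. In KLS cells at 3 w.p.i. 1 of 31 genes tested was lower in Daxx-KO, Daxx itself, against 0.257% of all genes called in either direction, and Daxx was also the 1 gene called in GMPs, in Daxx-KO (0.0948%) and in DKO (0.292%). In the DKO KLS libraries 1 of 31 was higher and 2 lower, against 17.6% of all genes. H3f3b, which encodes histone H3.3, was the higher one (4207 ± 177 normalized counts in DKO, n = 2, and 2642 ± 175 in WT, n = 3, SD, log2 fold change 0.67). Dnmt3b, a de novo DNA methyltransferase, was lower with Daxx (770 ± 85 and 1190 ± 223, log2 fold change -0.62).

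In the Pu.1 line 0 of 31 silencing genes were called in KLS cells (0.81% of all genes), where their median log2 fold change was -1.01 against 0.12 over all genes. In GMPs the median was -0.49 against -0.00. There 7 of 31 were lower and 0 higher, against 17.6% of all genes called in either direction. The lower ones were Hira, an H3.3 chaperone, Trim28, Setdb1, Dnmt3b, Cbx5, an HP1 protein, and Pphln1 and Morc2a, which act with the HUSH complex. The stem cell list summed to 7920 to 17650 in Pu.1-KO against 28920 to 33580 in WT KLS cells, and to 1354 to 1569 against 1323 to 1570 in GMPs. Late neutrophil markers summed to 121250 to 125099 against 17621 to 23337 in GMPs. Their part in the result was not tested. In the untimed set, by the headers of the gene tables, 6 of 30 were higher and 2 lower in KLS cells, against 23.1% called in either direction. In GMPs 3 were higher and 9 lower, against 33% in either direction. These shares lie on both sides of those over all genes.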

How the data were processed

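RNA-seq libraries of sorted KLS cells and GMPs were made and processed by the authors. Per the labels' processing notes the tools were CASAVA 1.8.4, cutadapt 1.13, STAR 2.5.3 and DESeq2 1.16.1, and the genome build was mm10. Repeat reads were counted by subfamily in tables named for TEtranscripts, which shares reads between repeat copies. The raw counts of the sets at 3 and 24 w.p.i. and of the Pu.1 line were deposited as such. The untimed repeat tables and all gene tables hold a deposited signal, counts divided by 1 size factor per library, and 100% of their values came out as whole reads (tolerance 0.01). No repeat sequences or coordinates were used here.

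Groups were taken from the labels. Of 59 samples, 34 libraries had a repeat column that could be assigned, and 42 of 111 value columns were not used in any step. Columns at 24 w.p.i. with a treatment ending and those of long-term stem cells and multipotent progenitors name no genotype. Where headers carry no replicate number, libraries are called a, b and c, and 1 WT column of KLS cells whose number no label gives is called unnumbered. The count tables of KLS cells at 3 w.p.i. agree on the libraries they share.

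Raw counts were tested with edgeR 4.0.16 (filterByExpr, TMM, quasi-likelihood F-test) in R 4.3.3, in 1 fit per table, or comparison by comparison for the KLS libraries 3 w.p.i.. Normalized values were tested with limma 3.58.1 on log2(value + 1) for means of at least 10, since the untimed and gene tables do not hold raw counts. P-values were adjusted by Benjamini–Hochberg over all subfamilies of a table, 2-sided. SE was taken from the fold change and the F statistic. A fold change on log2(value + 1) understates the change of low subfamilies. Scripts were tested on simulated data. DESeq2 1.42.0, other scalings and filters, pseudocounts of 0.5 and 5, left-out libraries and a replicate block were tried as alternatives. The shared replicate numbers of the untimed and KLS sets did not pair the libraries.

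The members, gene lists and tests were chosen with earlier results of these data known. The rule for naming took 26 well-known subfamilies, the 3 largest rises and falls called without overlap per comparison, and the 5 of highest level. It also took those called in 2 or more comparisons that share no library. Not all of these are described. Among those left out are RLTR44E, RLTR20C, RLTR51B_Mm, RLTR19A, RLTR50A and MMERVK10D3_LTR of the untimed set, and the well-known RLTR13A, RLTR13D, RLTR13D6, RLTR45 and MYSERV-int. Members named outside that rule (ERVB2_1-I_MM-int, ERVB4_2-I_MM-int, ERVB4_3-I_MM-int, ERVB4_3-LTR_MM, RLTR9C, MLTR25C, RMER17B2, RMER17C, RMER17D2, RLTR25B and those listed as called in the untimed set) were chosen after their values were seen. SE and SD include variation between libraries, whereas the limits set by read numbers cover counting error only.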

Additional observations from a re-analysis of the deposited data

Results flagged for a closer look

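Some members moved in opposite directions in KLS cells and GMPs under the same contrast, with every library of a group on one side. None of these differences between cell types was tested, because the cell types stand in separate tables. The share of all subfamilies with such opposite separation was not counted, so the members are not set apart by it.

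In the untimed set, after TMM scaling over repeat values and by the column headers, 9 named members did so. Separation was frequent there: as deposited, before that scaling, 65.3% of all subfamilies in KLS cells and 65.7% in GMPs did not overlap between headers. ETn entries and RLTR13G were lower under Daxx-KO in KLS cells and higher in GMPs: MMETn-int had log2 fold changes of -1.582 and 0.2918, RLTRETN_Mm -1.361 and 0.2006, and RLTR13G -1.127 and 0.2208. RLTR19-int (-0.2877 and 0.6673) and RMER13A2 (-0.2536 and 0.1094) went the same way. The opposite order was seen for MMERVK10C-int (0.3217 in KLS cells and -0.1471 in GMPs), RLTR10C (0.147 and -0.1996), MMERVK9E_I-int (0.3299 and -0.8846) and RMER6C (0.3106 and -0.481). Exchanged headers would turn each sign and leave the opposition in place.

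At 3 w.p.i. RLTR10B had a log2 fold change of DKO over WT of 0.551 in KLS cells and -0.4386 in GMPs. RLTR44-int had a log2 fold change of DKO over Daxx-KO of -0.3198 in KLS cells and 0.3888 in GMPs. Neither was called in either cell type.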

How the results depend on the processing

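Of 75 counts of called members under other settings, leaving out single libraries aside, 57 stayed within 1.5 times the reported count and 18 did not. The 57 include the untimed counts with genotype names exchanged, which cannot change, and counts of 0 that stayed at 0. The untimed KLS count of 31 became 12 with TMM over repeat values, and 13 with edgeR and 15 with DESeq2 on recovered reads, and the GMP count of 45 became 3, 4 and 7. With DESeq2 the counts at 3 w.p.i. in KLS cells were 5 (Daxx-KO over WT, from 0), 9 (DKO over WT, from 2) and 9 (DKO over Daxx-KO, from 2), and in GMPs 1 for DKO over Daxx-KO (from 0). In the Pu.1 line DESeq2 gave 6 in KLS cells (from 0) and 5 for WT GMPs over WT KLS cells (from 2), which no scaling beyond the total took to 0, and the GMP libraries alone gave 27 (from 0). For WT cells at 3 w.p.i. DESeq2 gave 15 (from 6). With the replicate block the KLS counts at 3 w.p.i. were 10, 16 and 5, in which MMETn-int and RLTR13G were called in Daxx-KO, and the untimed counts were 28 and 34. Correlations of same-numbered libraries were between -0.187 and 0.146, so these libraries share only a number, and the crossed pairing of untimed GMPs gave 54. Genotypes of GMPs at 3 w.p.i. and of the Pu.1 line were not paired because their columns carry no replicate number of the labels. WT GMPs and WT KLS cells share header numbers, and a pairing of the cell types by that number was not run.

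Leaving out 1 library gave 5 to 34 untimed KLS calls (lowest without WT 2) and 15 to 70 in GMPs (15 without Daxx-KO 2, 70 without WT 1). At 3 w.p.i. the ranges were 0 to 1, 0 to 4 and 1 to 1 for the KLS comparisons, and 0 to 0, 0 to 3 and 0 to 1 for GMPs. They were 0 to 63 and 0 to 0 for Pu.1-KO KLS cells and GMPs, 0 to 5 for their difference, and 0 to 0, 4 to 14 and 4 to 10 for WT GMPs over KLS cells in the Pu.1 line, at 24 w.p.i. and at 3 w.p.i. A lone library was assumed to vary like the other groups. Of the values of single members, 6794 kept their side of the threshold, 118 newly passed it, 186 lost it, 2 moved and 0 reversed. The cause of these shifts was not tested. Except for the TMM fits of the untimed set, the recomputed counts carry no share over all subfamilies. The tests on recovered reads, the crossed pairing, the GMP libraries alone, the total without L1Md_T and the WT cell comparisons at 3 and 24 w.p.i. were added after seeing the data. Genotype comparisons at 24 w.p.i. and in long-term stem cells were not run.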
